A study of Mus musculus with 12 samples.

Results

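Small leucine-rich proteoglycans are secreted matrix proteins with a horseshoe-shaped core of leucine-rich repeats, most of them carrying glycosaminoglycan chains. Decorin (Dcn), biglycan (Bgn), lumican (Lum) and fibromodulin (Fmod) bind collagen fibrils and set their spacing and thickness, and decorin and biglycan also bind growth factors such as TGF-beta. In skin they are made mainly by fibroblasts of the dermis, the collagen-rich layer beneath the epidermis, so their transcripts are often read as a mark of dermal tissue. The members were the probe sets whose RefSeq accession named Dcn, Lum or Fmod, together with any of Bgn, Kera, Epyc, Ogn, Omd and Prelp that was measured. This rule named 9 genes, and 4 of them (Dcn, Bgn, Lum and Fmod) had a named probe set, 1 each, among 1246 probe sets and 909 named genes. Dcn was measured by NM_007833.4_psr1_s_at, Bgn by NM_007542.4_psr1_at, Lum by NM_008524.2_psr1_at and Fmod by NM_021355.3_psr1_at. In the RefSeq annotation of GRCm38.p6, Dcn and Lum are adjacent protein-coding genes, followed by Kera and then Epyc, while Fmod lies beside Prelp and Bgn is on another chromosome.

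Expression was measured on single-colour arrays in mouse samples, titled B6, to find genes that change in keratinocytes after wounding. There were 4 non-wounded samples. Wounded samples numbered 1 for the 0 h time, 2 for 30 min, 4 for 2 h and 1 for 4 h, with no allele, agent, age or pooling stated. Whole epidermis is the planned source of RNA in the study's design, whereas the sample labels give dendritic epidermal T cells, a T cell type that lives among keratinocytes. Lgals7, a galectin of keratinocytes, averaged 12.08 ± 0.27 on the log2 scale without wounding (SD, n = 4). The T cell and natural killer receptor Klrk1 lay between 2.27 and 2.55 in the same samples. Of the other T cell markers measured, Cd2 averaged 4.77 and Il2rb 5.09 there. By rank within these samples, the 3 T cell markers stood on average above 41.4% to 44.4% of probe sets. For 4 keratinocyte markers this share was 91.2% to 95.7%. Values are RMA summaries on a log2 scale, so a difference of 1 is a doubling of signal. A value depends on the probes as well as on the transcript, so the level of a probe set against others is given only as its rank on the array. Nothing ties each replicate to its own mouse, so the spread behind the p-values may be technical.

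The titles number the samples, and the 5 samples numbered 1, 1 in each group, stood apart from the 7 samples numbered 2 to 4. Over all probe sets the SD of the log2 values was 1.55 to 1.85 in the samples numbered 1 and 2.19 to 2.30 in the others. Dim probe sets were higher and bright ones lower in the samples numbered 1. Split by mean level into 4 bins of like size, the dimmest bin had 96.5% of its probe sets higher in the samples numbered 1, with a median log2 difference of 0.46. In the brightest bin 9.62% were higher and the median was -1.18. Lum was in the dimmest bin, Fmod in the next, and Bgn and Dcn in the one above that. The 0 h and 4 h groups hold only a sample numbered 1, so time and number cannot be told apart there. Each member is therefore given separately for the 2 kinds of sample, and also as its percentile within its own sample, the share of probe sets below it, which does not change with the scale of a sample.

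Decorin carries a single chondroitin or dermatan sulfate chain and is a major proteoglycan of dermis. Its log2 value in the non-wounded samples was 4.38 in number 1, 4.76 in number 2, 4.65 in number 3 and 4.32 in number 4. At 2 h it was 4.27 in number 1, 5.29 in number 2, 5.72 in number 3 and 5.25 in number 4. The samples numbered 2 to 4 were thus all higher at 2 h than any non-wounded sample, while the sample numbered 1 at 2 h was the lowest of all 12. At 30 min the values were 4.53 in number 1 and 5.04 in number 2, and the single samples at 0 h and 4 h had 4.73 and 4.57.

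Biglycan, the closest relative of decorin, carries a pair of such chains and signals through innate immune receptors when soluble. Its log2 values in non-wounded samples 1 to 4 were 4.38, 4.74, 4.54 and 4.21. At 2 h they were 4.61, 4.62, 4.76 and 4.49 in the same order of numbers, inside or just above that range. The 30 min samples had 4.72 in number 1 and 4.37 in number 2, the 0 h sample had 4.60, and the 4 h sample, at 4.90, was the highest of the 12. Bgn varied least of the 4 genes, with an SD over all 12 samples of 0.19, against 0.33 for Lum, 0.44 for Dcn and 0.49 for Fmod.

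Lumican, a keratan sulfate carrier that keeps collagen fibrils of cornea and skin thin, gave the dimmest probe set of the members relative to the whole table, with 7.46% of probe sets dimmer by mean level. Its log2 values in non-wounded samples 1 to 4 were 2.53, 2.19, 2.25 and 2.32. At 2 h they were 2.71, 2.41, 2.75 and 2.65. Within numbers 2 to 4 the 2 h samples lay above the non-wounded samples. Lum was at 3.03 in number 1 and 2.48 in number 2 at 30 min, at 2.49 at 0 h and at 3.32, its highest value, at 4 h. RMA values carry no detection call, so how far these dim values stand above background is not known.

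Fibromodulin, a keratan sulfate proteoglycan of tendon and skin that competes with lumican for a site on collagen, had log2 values of 3.43, 3.25, 3.05 and 3.02 in non-wounded samples 1 to 4. At 2 h they were 4.65 in number 1, 3.49 in number 2, 3.36 in number 3 and 3.44 in number 4. The sample numbered 1 was far above the other 3 at 2 h. The 30 min samples had 4.36 in number 1 and 3.51 in number 2, the 0 h sample had 3.87 and the 4 h sample 3.45. The 2 highest Fmod values of the study were those of number 1 at 2 h and 30 min, whereas at 4 h number 1 was back near its non-wounded value.

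**Figure D1:**
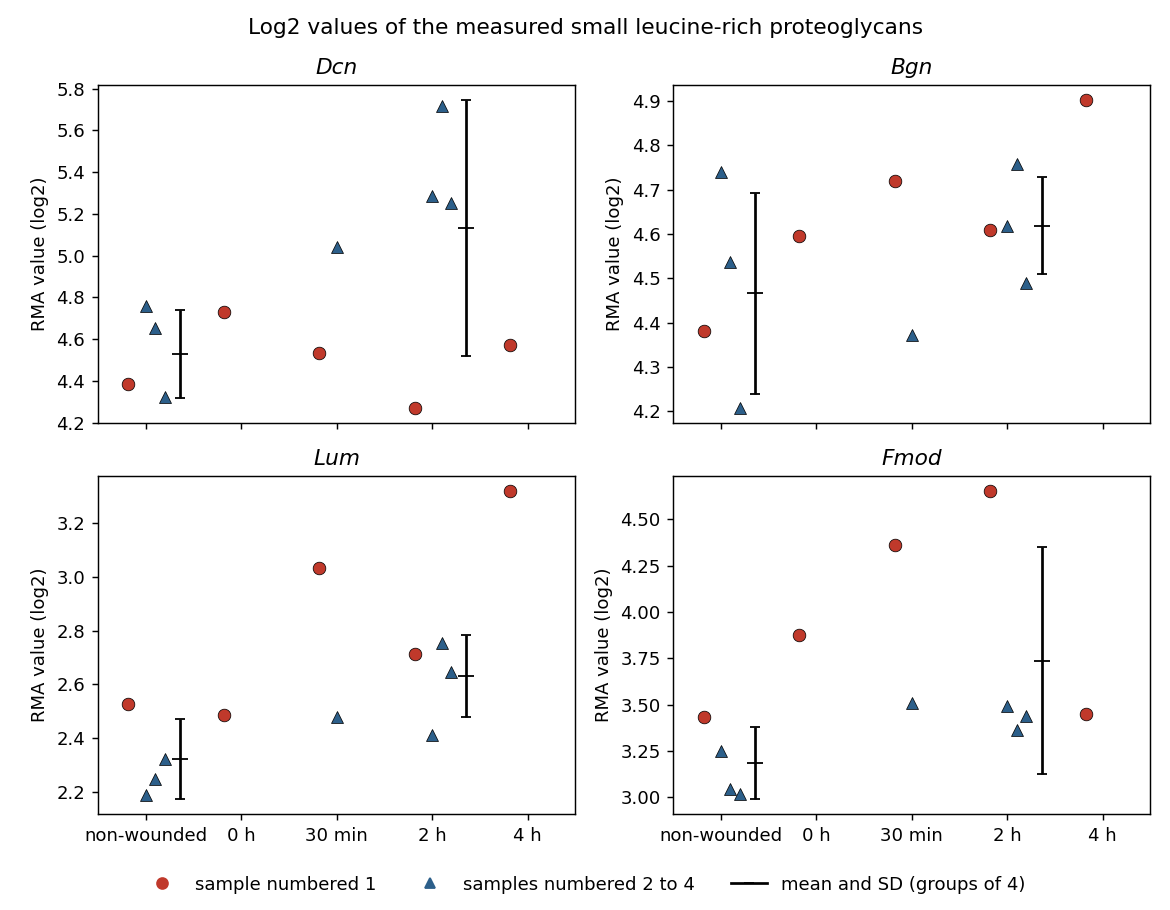
Log2 RMA values (vertical axes, each panel with its own range) of Dcn, Bgn, Lum and Fmod in the 12 samples by group; circles are samples numbered 1, triangles samples numbered 2 to 4, and the bars beside the groups of 4 are mean and SD. Dcn at 2 h is high in numbers 2 to 4 (5.25 to 5.72) and low in number 1 (4.27), whereas Fmod at 2 h is high in number 1 (4.65) and lower in numbers 2 to 4 (3.36 to 3.49).

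The first comparison asked how the samples numbered 1 differed from those numbered 2 to 4 in these dermal genes, with group means in the model. The single 0 h and 4 h samples do not inform this difference, which rests on the non-wounded, 30 min and 2 h groups. At 30 min it sets number 1 against number 2 alone. The same holds for the lists below. The members did not move in 1 direction. Dcn was lower in the samples numbered 1, by a log2 difference of -0.63 ± 0.20 (SE, limma adjusted p = 0.0162), and Fmod was higher, by 0.79 ± 0.16 (limma adjusted p = 0.00193). Lum was at 0.28 ± 0.12 (limma adjusted p = 0.0581) and Bgn at 0.04 ± 0.14 (0.812), with a 95% interval of -0.28 to 0.36. Of all probe sets 68.8% passed in the same comparison, 39.8% higher and 29.0% lower, so 1 member called in each direction is no larger a share than the background. The split turns with the scale, to 14.6% higher and 30.7% lower after all samples were set to a common median and SD.

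Set against probe sets of like level, the members differed in rank. Fmod had a larger difference than 89.7% of the probe sets of its bin, whose median was 0.37. Dcn had a larger difference than 30.9% of its bin (median -0.09), and Bgn than 55.3% of the same bin. For Lum it was 19.6% of its bin, whose median was 0.46. After that scaling Dcn stayed lower (-0.73, limma adjusted p = 0.00859), Fmod was higher without passing (0.51, 0.0507), and Lum turned lower and passed (-0.41, 0.0238), as did the 30.7% of all probe sets that were called lower on this scale. Bgn had no settled direction, at -0.06 with that scaling (0.723). Lum was thus higher or lower in the samples numbered 1 according to the scale used.

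**Figure D2:**
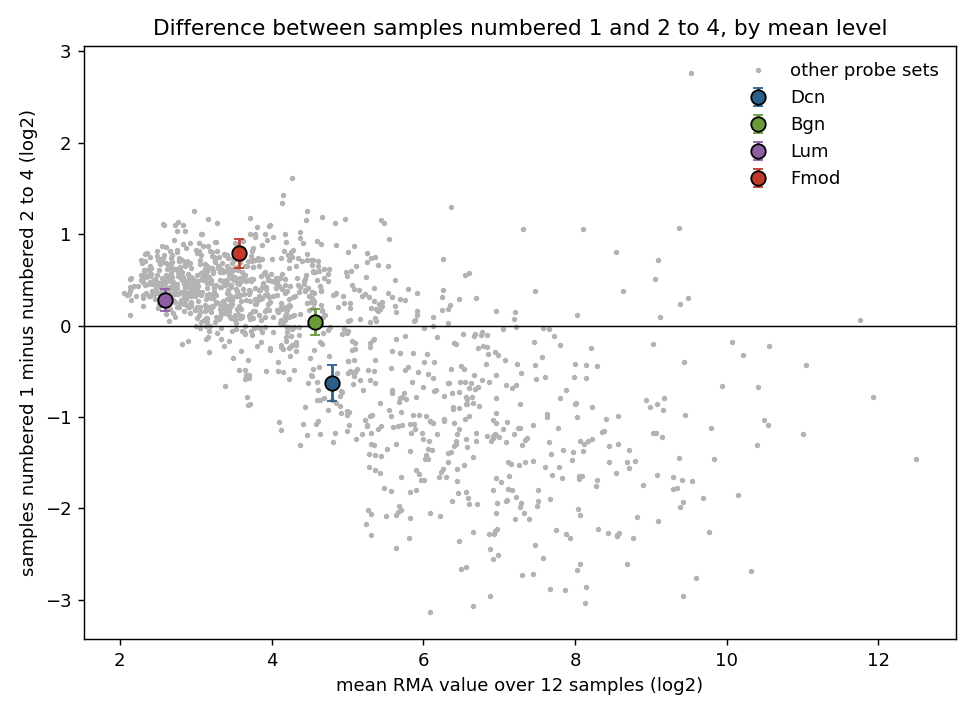
Log2 difference of samples numbered 1 minus samples numbered 2 to 4 (vertical axis, with group means in the model) against the mean log2 value over 12 samples (horizontal axis) for 1246 probe sets, the 4 members in colour with their SE. Dim probe sets lie mostly above 0 and bright ones below it. Fmod (0.79) is high among probe sets of similar level, whereas Dcn (-0.63) lies between the quartiles of its bin (-0.83 and 0.36).

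For Dcn and Fmod the difference between the 2 kinds of sample was smallest without wounding. In the non-wounded group Dcn in number 1 was inside the range of numbers 2 to 4, with a difference from their mean of -0.20, whereas at 30 min the difference was -0.51 and at 2 h -1.15. For Fmod the differences from the mean of numbers 2 to 4 were 0.33 without wounding, 0.85 at 30 min and 1.22 at 2 h. Without the 2 h sample numbered 1 the difference for Dcn was -0.32 (limma adjusted p = 0.172), so that call rests on this sample, and that for Fmod was 0.54 (0.0147). As a percentile within the sample, Fmod lay between 27.5 and 30.1 in all 4 non-wounded samples, number 1 included at 28.5. It lay at 51.6 and 59.1 in number 1 at 30 min and 2 h, and between 34.7 and 38.3 in the wounded samples numbered 2 to 4. The percentile of Dcn was 53.6 in number 1 and 56.3 to 59.1 in numbers 2 to 4 without wounding, and 49.7 against 64.4 to 69.4 at 2 h. Bgn stayed between 53.5 and 59.7 in every sample but that at 4 h, where it was at 63.8.

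Other dermal genes were set beside the members, since fewer cells of a type and less RNA per cell cannot be told apart in bulk samples. Of 21 listed dermal fibroblast markers 9 were measured, 3 of them members, and in the samples numbered 1 against 2 to 4 there were 6 higher and 1 lower past the limma test, the lower one being Dcn, where 39.8% and 29.0% of all probe sets passed. Igf1 and Pdgfra lie in the dimmest bin, where 96.5% of probe sets were higher. Fgf10 lies in the next, where 84.6% were higher, and Cxcl12 in the one above that, where 45.7% were. The growth factor Fgf10 was higher by a log2 difference of 0.82 ± 0.10 (SE), the chemokine Cxcl12 by 0.87 ± 0.13, the growth factor Igf1 by 0.80 ± 0.13 and the PDGF receptor Pdgfra by 0.68 ± 0.11, with limma adjusted p from 0.000128 to 0.000637. Pdgfrb, another PDGF receptor on the list, overlapped, at 3.43 to 3.64 in the samples numbered 1 and 3.17 to 3.58 in the others. After the scaling 2 rose and 3 fell, where 14.6% and 30.7% of all probe sets did. Fgf10 and Cxcl12 were those that rose (0.49 and 1.02, limma adjusted p = 0.00318 and 0.000997), and Dcn and Lum were among those that fell. Igf1 was then at 0.21 (limma adjusted p = 0.299) and Pdgfra at 0.13 (0.425). Leaving the members out, the mean percentile of the 6 remaining markers was 30.8 to 42.3 in the 5 samples numbered 1 and 25.2 to 28.0 in the 7 others, with no overlap. The share of probe sets that separate like this by percentile was not counted, here or for the keratinocyte markers below. On log2 values separation within single groups was common. Number 1 lay above numbers 2 to 4 for 53.5% of all probe sets without wounding and 49.7% at 2 h, and below for 30.7% and 39.6%. The mean percentile of the 6 markers, Fgf7 among them, was highest in number 1 at 2 h, the sample with the highest Fmod and the lowest Dcn. The markers did not share this rise. On the log2 scale Fgf7 (4.52 against 2.92), Igf1 (3.56 against 3.12) and Pdgfra (3.50 against 3.10) were higher there than in number 1 without wounding. Fgf10 (3.99 against 4.05), Cxcl12 (5.36 against 5.49) and Pdgfrb (3.43 against 3.64) were lower.

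In number 1 at 2 h the keratinocyte growth factor Fgf7, singled out after its values were seen, was at 4.52 on the log2 scale. In the other 2 h samples it was at 2.48 to 2.50. Of 15 keratinocyte markers 4 were measured, and all 4 were lower in the samples numbered 1, Egfr by -2.24 and Lgals7 by -0.78. All 4 lie in the brightest bin, where only 9.62% of probe sets were higher, so this count is near that of probe sets of like level. With scaling 1 was higher and 2 lower past the test, Lgals7 being the higher one at 1.29. The mean percentile of the 4 was 87.6 to 93.9 in the samples numbered 1, lowest at 2 h, and 94.3 to 95.7 in the others. The part of cell make-up or of the narrower range of values in the differences of Dcn and Fmod was not tested.

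**Figure D3:**
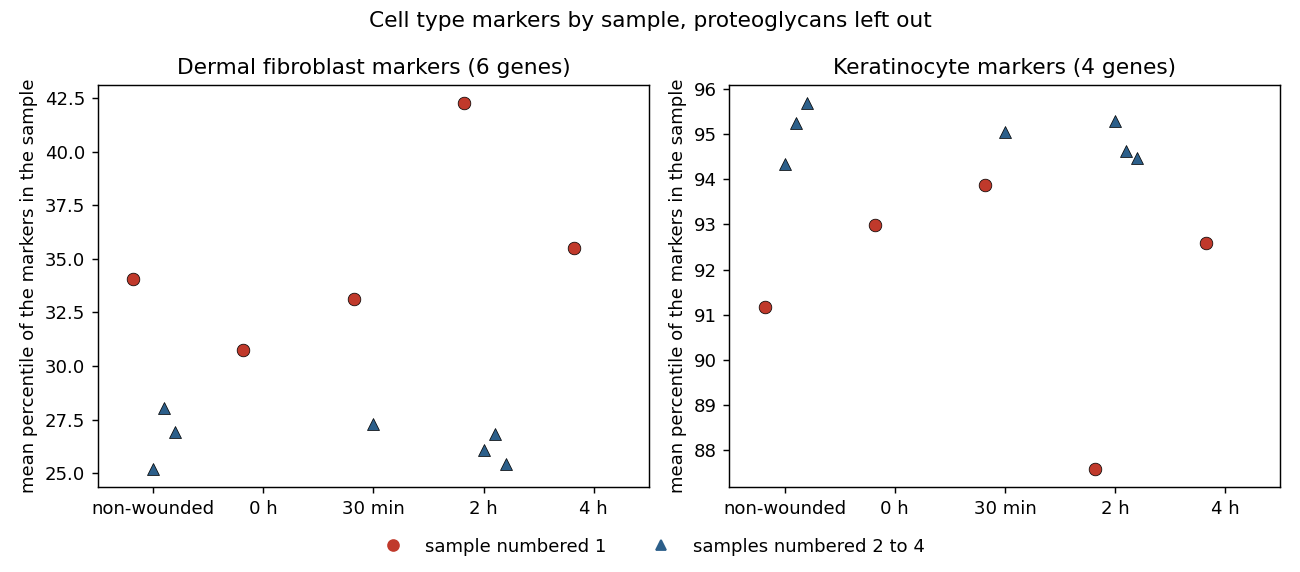
Mean percentile within each sample (vertical axes, per cent of probe sets below, axes not starting at 0) of 6 dermal fibroblast markers other than the members and of 4 keratinocyte markers, by group. Circles, samples numbered 1, lie above the triangles, samples numbered 2 to 4, for the fibroblast markers (30.8 to 42.3 against 25.2 to 28.0) and below them for the keratinocyte markers (87.6 to 93.9 against 94.3 to 95.7). The share of all probe sets with such a separation by percentile was not counted.

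The second comparison asked how the members changed by 2 h after wounding. All 4 had higher means at 2 h than in the non-wounded samples, and none passed the test. The means of Dcn were 4.53 ± 0.21 and 5.13 ± 0.61 (SD, n = 4 each), a log2 difference of 0.60 ± 0.30 (SE, limma adjusted p = 0.998, 95% interval -0.06 to 1.26). Fmod was at 0.55 ± 0.31 (means 3.19 ± 0.19 and 3.74 ± 0.61), Lum at 0.31 ± 0.17 (2.32 ± 0.15 and 2.63 ± 0.15) and Bgn at 0.15 ± 0.17 (4.47 ± 0.23 and 4.62 ± 0.11), each with a limma adjusted p of 0.998. Over the array 0.241% of probe sets passed, 3 in number and all higher, and 54.5% had a difference above 0. There were 11 without 2 h replicate 1, 0 without any other 1 of the samples compared, and 17 (1.36%) with the replicate number as a block, no member among the last. At an unadjusted p under 0.05 there were 58 probe sets (4.65%), none of them a member in this fit. With the block the limma adjusted p was 0.238 for Dcn, 0.232 for Fmod, 0.344 for Lum and 0.702 for Bgn. Without 2 h replicate 1 the difference was 0.25 for Fmod and 0.89 for Dcn, and with scaling that for Lum was 0.12 and that for Bgn 0.09. For every member the 4 samples at 2 h overlapped the 4 non-wounded samples, and 2.01% of all probe sets were higher without overlap. With array weights, a fit whose weights did not fully converge, Dcn (0.79, limma adjusted p = 0.00590) and Fmod (0.38, 0.0328) passed, among 130 probe sets.

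Within the samples numbered 2 to 4 the groups separated for 3 members. The 2 h samples of Dcn, Lum and Fmod all lay above the 3 non-wounded samples, a pattern seen in 14.7% of all probe sets in this direction, and those of Bgn overlapped. On the scaled values Dcn and Fmod still separated and Lum overlapped. The share of all probe sets that separate on that scale was not counted, so this cannot be set against a background. Fitted alone, these samples gave a log2 difference of 0.84 for Dcn (limma adjusted p = 0.0573), 0.35 for Lum (0.164), 0.33 for Fmod (0.146) and 0.13 for Bgn (0.688), where 3.05% of probe sets passed. With scaling these became 0.68 for Dcn, 0.19 for Lum, 0.19 for Fmod and 0.03 for Bgn. In the pair numbered 1 Dcn differed by -0.11, Fmod by 1.22, Lum by 0.18 and Bgn by 0.23, with no replicate.

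The 2 h change itself was compared between the 2 kinds of sample. For Fmod it was smaller in numbers 2 to 4 than in the pair numbered 1, by a log2 difference of -0.89 ± 0.19 (SE, limma adjusted p = 0.0396). For Dcn it was larger in numbers 2 to 4 by 0.95 ± 0.34, which did not pass (limma adjusted p = 0.125, 95% interval 0.15 to 1.76). Lum (0.17 ± 0.22, 0.638) and Bgn (-0.10 ± 0.30, 0.843) did not pass either. In this comparison 8.83% of all probe sets passed, 4.33% in the direction of Fmod. The pair numbered 1 has no replicate of its own and was taken to vary like the other samples. The Fmod call ended without the dim probe sets (limma adjusted p = 0.0708) and without any 1 of non-wounded replicate 3 and 2 h replicates 2, 3 and 4 (0.0806 to 0.0887).

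The third comparison took the 30 min samples, 1 of each kind. No member passed, where 0.0% of probe sets passed and 63 (5.06%) had an unadjusted p under 0.05. Fmod was at a log2 difference of 0.75 ± 0.38 (SE) and Lum at 0.43 ± 0.21, each with a limma adjusted p of 0.735, Dcn at 0.26 ± 0.36 (0.805) and Bgn at 0.08 ± 0.21 (0.903). Each value depended on which 30 min sample was kept. Without replicate 2, Fmod was at 1.18, Lum at 0.71, Dcn at 0.002 and Bgn at 0.25. Without replicate 1, Fmod was at 0.32, Lum at 0.16, Dcn at 0.51 and Bgn at -0.09. With scaling of all samples Lum was at 0.12. Number 2 at 30 min lay above the non-wounded samples numbered 2 to 4 for Dcn, Lum and Fmod, as did 23.0% of all probe sets, and inside their range for Bgn. Against 30 min, the 2 h samples differed by 0.35 ± 0.36 for Dcn, 0.07 ± 0.21 for Bgn, -0.12 ± 0.21 for Lum and -0.20 ± 0.38 for Fmod, each with a limma adjusted p of 0.980. In that comparison too 0.0% of probe sets passed, with 27 (2.17%) at an unadjusted p under 0.05.

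The single samples at 0 h and 4 h were set against the non-wounded sample numbered 1, which has the same number. At 0 h Fmod was higher by 0.44 and Dcn by 0.35, with Bgn at 0.21 and Lum at -0.04. On the log2 scale only Fmod left the span of the 4 non-wounded samples at 0 h, lying above it, as were 29.5% of all probe sets. At 4 h Lum was higher than in the non-wounded sample numbered 1 by 0.79 and Bgn by 0.52, while Dcn (0.19) and Fmod (0.02) were near it. Lum, Bgn and Fmod lay above the non-wounded range at 4 h, as did 38.8% of all probe sets, and with scaling Fmod lay below it. These values have no replicate.

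**Figure D4:**
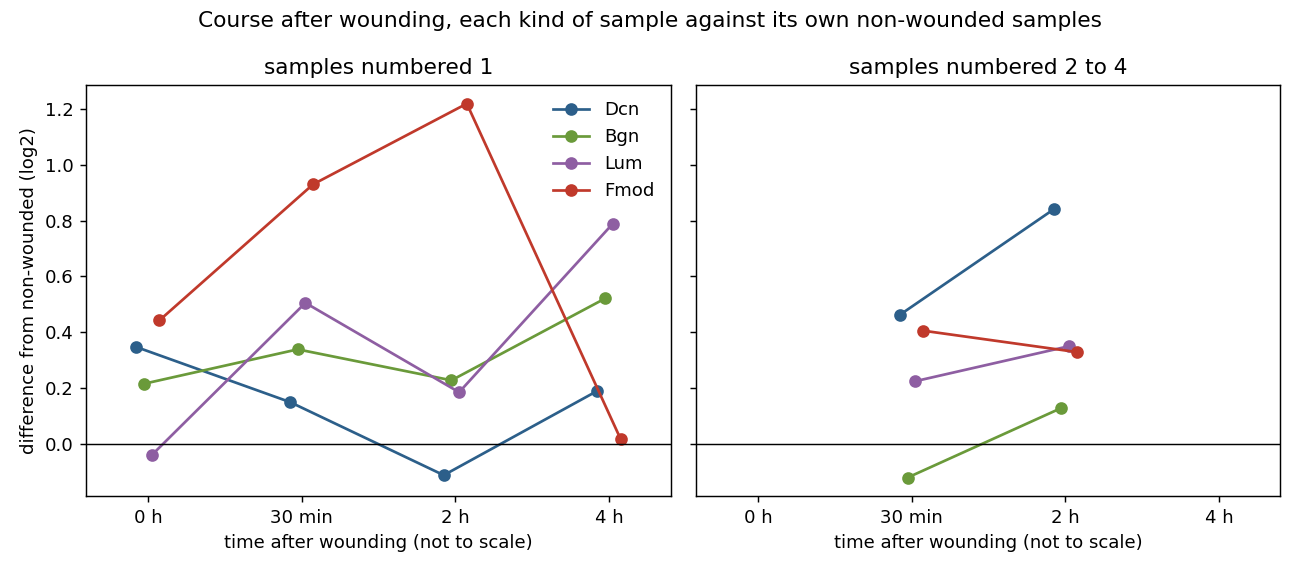
Log2 difference from non-wounded (vertical axis) at each time after wounding for Dcn, Bgn, Lum and Fmod, with samples numbered 1 against the non-wounded sample numbered 1 (left, 1 sample a point) and samples numbered 2 to 4 against the mean of the non-wounded samples numbered 2 to 4 (right, 1 sample at 30 min and the mean of 3 at 2 h). Fmod is at 1.22 at 2 h and 0.02 at 4 h on the left, and Dcn is at 0.84 at 2 h on the right and -0.11 on the left.

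The enzymes that build the chains of these proteoglycans were measured in the same samples. Of 23 symbols, aliases included, listed for chondroitin and dermatan sulfate chains, the chains of Dcn and Bgn, 18 were measured. At 2 h 14 of them were lower and 4 higher than without wounding, none past the limma test. Their median log2 difference was -0.19, where the median of all probe sets was 0.03. Of all probe sets 54.5% had a 2 h difference above 0, or 36.7% with scaling. With scaling 15 of the list were lower and 3 higher, with a median of -0.23, where that of all probe sets was -0.06. In the samples numbered 2 to 4 alone 11 were lower and 7 higher, with a median of -0.05, and for 15 of the 18 the 2 h change was higher there than in the unreplicated pair numbered 1. In the samples numbered 1, 39.8% of all probe sets were higher and 29.0% lower past the test, or 14.6% and 30.7% with scaling. Of this list 2 were higher and 7 lower there, or 3 and 6 with scaling. Chsy1, which polymerises chondroitin, was lower there by a log2 difference of -2.02 ± 0.22 (SE), the dermatan epimerase-like Dsel by -1.66 ± 0.21, the chondroitin 6-sulfotransferase Chst3 by -1.36 ± 0.24 and Csgalnact2, which starts the chains, by -0.85 ± 0.14. Of 14 symbols, aliases included, listed for keratan sulfate chains, the chains of Lum and Fmod, 13 were measured. At 2 h 8 were higher and 5 lower (median 0.11), or 6 and 7 with scaling (median -0.01), with no call. In the samples numbered 1 there were 3 higher and 5 lower past the test, or 2 and 7 with scaling. Without scaling the chain-extending B3gnt2 was at -1.89 ± 0.15, the galactosyltransferase B4galt1 at -1.49 ± 0.20 and the sialyltransferase St3gal3 at 0.91 ± 0.16. B4gat1, a glucuronyltransferase that the list counts although it is not a keratan sulfate enzyme, was at -1.23 ± 0.13. Of the genes named in this paragraph, Dsel, Chst3, B3gnt2, B4galt1 and B4gat1 lie in the brightest bin. In that bin 9.62% of probe sets were higher and the median was -1.18.

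Other matrix proteoglycans showed the same absence of calls at 2 h. Of 28 listed, 14 were measured, 11 higher and 3 lower at 2 h, with a median of 0.11, or 6 and 8 with scaling (median -0.03). In the samples numbered 1 there were 8 higher and 2 lower past the limma test, or 2 and 4 after the scaling to a common median and SD. Over all probe sets 39.8% and 29.0% passed, or 14.6% and 30.7% with scaling, which holds for the lists below too. Without scaling agrin (Agrn), of basement membranes, was at -1.64 ± 0.13 (SE) in these samples and the granule proteoglycan serglycin (Srgn) at -1.42 ± 0.29. Brevican (Bcan) was at 1.12 ± 0.11 and testican-3 (Spock3) at 0.79 ± 0.13. Of 13 genes of TGF-beta ligands and receptors, whose ligands decorin binds, 7 were measured. At 2 h 4 were higher and 3 lower and none passed, and in the samples numbered 1 there were 1 higher (Tgfb2, 0.52 ± 0.15) and 3 lower (Tgfbr2, -2.001 ± 0.17; Tgfbr1, -1.65 ± 0.17; Tgfbr3, -1.65 ± 0.22), or 0 and 4 with scaling. Of 12 receptors described for decorin, biglycan or lumican 4 were measured. At 2 h 3 were higher and 1 lower, none past the test, and in the samples numbered 1 Egfr, Met (-2.04 ± 0.21) and Igf1r (-1.94 ± 0.18) fell and Erbb4 (0.38 ± 0.11) rose. With scaling Erbb4 was at -0.15. Of the genes named in this paragraph, Agrn, Tgfbr2, Tgfbr3, Egfr and Igf1r lie in the brightest bin, where 9.62% of probe sets were higher (median -1.18). Spock3 and Erbb4 lie in the dimmest, where 96.5% were higher, and Tgfb2 in the bin next to it, where 84.6% were.

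At 2 h no measured marker of dermal fibroblasts passed the limma test, with 8 of 9 higher and a median of 0.16. With scaling 5 were higher and 4 lower, with a median of 0.04, and the share of all probe sets with a difference above 0 went from 54.5% to 36.7%. This list includes Dcn, Lum and Fmod, and of the others Pdgfra was at 0.16 ± 0.26 (SE) and Fgf10 at 0.06 ± 0.30. Other cell types had markers on the array too. None passed among 4 keratinocyte markers (1 higher, median -0.18), 3 endothelial markers (3 higher, 0.16), 3 T cell markers (2 higher, 0.18), 3 Langerhans cell markers (1 higher, -0.11), 6 monocyte and macrophage markers (4 higher, 0.13) or 4 neutrophil markers (4 higher, 0.29). The Langerhans cell lectin Cd207 passed with the replicate number as a block (0.91, limma adjusted p = 0.0448). The T cell adhesion molecule Cd2 was at 0.63 ± 0.19 (limma adjusted p = 0.379). In the samples numbered 1 the counts past the test, higher and lower, were 0 and 4 for keratinocyte, 2 and 0 for endothelial, 0 and 0 for T cell, 0 and 3 for Langerhans cell, 3 and 1 for monocyte and macrophage and 2 and 2 for neutrophil markers, where 39.8% and 29.0% of all probe sets passed. With scaling they were 1 and 2 for keratinocyte, 0 and 0 for endothelial, 0 and 1 for T cell, 1 and 0 for Langerhans cell, 1 and 1 for monocyte and macrophage and 0 and 2 for neutrophil markers, where 14.6% and 30.7% did.

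The likeness between members depended on which samples were used. It was measured as the root mean square difference of log2 profiles, each minus its own mean, over the 12 samples. Fmod was closest to the receptor phosphatase Ptprt (0.13, where the median over named genes was 0.56), then to Rpn1 (0.20) and Prg2 (0.21). Lum was closest to Wnt8a (0.14), Il17c (0.14) and Il6ra (0.15), against a median of 0.47. Dcn was closest to the polysialyltransferase St8sia4 (0.27), Pfdn6 (0.28) and Nog (0.30), against a median of 0.62. Between members the difference was 0.72 for Dcn and Fmod, 0.54 for Dcn and Lum, 0.46 for Fmod and Bgn, 0.43 for Lum and Fmod, 0.42 for Dcn and Bgn and 0.26 for Lum and Bgn, the closest pair. Among all named genes Bgn ranked 42 in likeness to Dcn, Lum 234 and Fmod 667. A gene that varies little ranks high by this measure. The root mean square of a profile about its own mean was 0.43 for Dcn, 0.31 for Lum, 0.47 for Fmod and 0.19 for Bgn. A flat profile would thus differ from Dcn by 0.43, so the 0.42 of Bgn does not show a shared course. Over the 7 samples numbered 2 to 4 it was 0.35 for Dcn and Bgn, 0.31 for Dcn and Fmod, 0.29 for Dcn and Lum, 0.24 for Lum and Bgn, 0.22 for Fmod and Bgn and 0.18 for Lum and Fmod. There Lum ranked 29 and Fmod 40 in likeness to Dcn, against a median of 0.45 over named genes. The profiles' own root mean square there was 0.43 for Dcn, 0.19 for Lum, 0.19 for Fmod and 0.18 for Bgn. The nearest genes there were others, Fgfr1, Bcan and Hpse2 for Fmod, Csf3r, Fgf6 and Gpc3 for Lum and Ifnl3, B3galt5 and Ccl21c for Dcn.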

How the data were processed

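Total RNA was extracted with Trizol and labelled with biotin by the Affymetrix procedure, per the labels' protocols. The deposited values were RMA values on a log2 scale, per the submitters' processing notes for the method and from the values for the scale. No source used here names the array or any filter. Probe sets were named through RefSeq accessions of GRCm38.p6 without versions, which matched 963 of 1246, leaving 283 unnamed, and no coordinates are given. Genes with several probe sets (48) were represented by the brightest.

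limma 3.58.1 (lmFit, eBayes, R 4.3.3) was fitted to all 12 samples and all probe sets, with Benjamini-Hochberg adjustment and a threshold of 0.05. The fits were group means, group means with a term for the samples numbered 1, and group by number. Group means and the term for the samples numbered 1 were tested on simulated data. The group by number fit was not. The members, lists and tests were chosen with earlier results of these data known. List genes were named where they passed (at most 4 per list and comparison), otherwise the 2 with the smallest p. Not every gene that the rule takes is printed.

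Titles give replicate numbers. Deviations of non-wounded and 2 h samples with the same number correlated at 0.796, 0.449, 0.651 and 0.297, above the limit of 0.1 for a pairing. Without number 1 the correlations were -0.150, 0.0727 and -0.319, all under that limit. The main fits held no pairing, and the replicate number entered as a block only in alternatives. Alternatives are listed with their effect in the closing section. Figures were drawn with matplotlib 3.10.9.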

Additional observations from a re-analysis of the deposited data

Results flagged for a closer look

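In groups of 4 a sample was singled out where its gap to the nearest other sample, divided by the range of the group, passed Dixon's critical value at the 95% level, which chance passes in about 1 in 20 groups. Fmod at 2 h was singled out for number 1 (0.898), which had 4.65 against 3.36 to 3.49 in the other 3 samples. No other group of a member was.

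Among the dermal fibroblast markers number 1 was singled out as highest at 2 h for Fgf7 (0.988), Igf1 (0.925) and Pdgfra (0.869), and as highest without wounding for Cxcl12 (0.930) and Fgf10 (0.890). Of the genes nearest in profile, number 1 was highest at 2 h for Ptprt (0.899) and lowest without wounding for St8sia4 (0.833). All 8 of these, out of 38 groups tested, concerned number 1. Of 88 groups of the other genes named, 28 were singled out, 27 of them for number 1. Most of these genes were named because they passed the comparison of number 1 with 2 to 4, and Ptprt because its profile is near that of Fmod, so these counts follow in part from how the genes were chosen and are not to be read against 1 in 20.

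The 2 h change of Fmod differed between the kinds of sample, at -0.89 for numbers 2 to 4 minus the pair numbered 1 (limma adjusted p = 0.0396). The pair numbered 1 has no replicate, and the value rests on the same 2 h sample as the gap above. The call was lost without dim probe sets (0.0708) and without any 1 of 4 samples (0.0806 to 0.0887).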

How the results depend on the processing

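Over 28 results for the members, 345 of 391 alternative values kept direction and side of the threshold, 24 reversed, 8 lost a call, 6 gained one and 8 values at 0 h or 4 h moved. No cause was tested. The samples numbered 2 to 4 alone with scaling, and the replicate block with scaling, were chosen after seeing the data. Bgn, 30 min against non-wounded, reversed with median centring (-0.015) and in numbers 2 to 4 alone (-0.12, and -0.12 with scaling), and ranged from -0.094 to 0.25 with 1 sample left out. For 2 h against 30 min, Bgn was -0.020 with quantile normalization and ranged from -0.10 to 0.25. Lum was 0.0029 with scaling, 0.13 in numbers 2 to 4 alone and 0.046 there with scaling, and ranged from -0.40 to 0.15. Fmod ranged from -0.62 to 0.23. For number 1 against 2 to 4, Bgn was -0.061 with scaling and -0.17 with centring (range -0.064 to 0.13). Lum was -0.13 with quantile normalization, -0.41 with scaling and 0.28 with an intensity trend, where it passed (range 0.19 to 0.39). Dcn was -0.73 with array weights (range -0.89 to -0.32), and Fmod 0.51 with scaling, neither passing. With array weights Dcn (0.79) and Fmod (0.38) passed at 2 h, and the difference in the 2 h change passed for Dcn (0.89). That difference ranged from -0.24 to 0.024 for Bgn and from -0.94 to -0.82 for Fmod, which did not pass without dim probe sets (-0.89).

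With 1 sample left out, the 2 h difference from non-wounded ranged from 0.41 to 0.89 for Dcn, 0.07 to 0.24 for Bgn, 0.26 to 0.38 for Lum and 0.25 to 0.68 for Fmod, and the 30 min difference from 0.002 to 0.51 for Dcn, 0.16 to 0.71 for Lum and 0.32 to 1.18 for Fmod.

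The count of probe sets passing at 2 h against non-wounded, 3, was 7 with quantile normalization, 0 with centring, 8 with a trend, 130 with array weights, 15 with a random block, 20 with a term for number 1, 38 in numbers 2 to 4 alone and 42 there with scaling, and 0 to 11 with 1 sample left out. At 30 min it was 0, and 0 to 74 with 1 sample left out, 74 being without 30 min replicate 2. For 2 h against 30 min, 0 became 2 with quantile normalization, 1 with scaling, 1 with a random block, 1 with a term for number 1, 2 in numbers 2 to 4 alone and 2 there with scaling (0 to 9 with 1 sample left out). For number 1 against 2 to 4, 857 became 479 with quantile normalization and 565 with scaling (739 to 861). For the difference in the 2 h change, 110 became 279 with quantile normalization, 313 with scaling, 29 without dim probe sets, 167 with a trend and 324 with array weights (7 to 156).

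A replicate block gave 17 calls at 2 h against non-wounded, 13 with quantile normalization too and 10 with scaling too. For 2 h against 30 min the block with either gave 1. With the block, Fmod at 2 h against 30 min was 0.047, 0.076 with quantile normalization and 0.0033 with scaling, and Bgn was -0.0089 with quantile normalization. The block changed no call of a member, Dcn having a limma adjusted p of 0.238 and Fmod 0.232 at 2 h. Lum has no value without dim probe sets, and the difference in the 2 h change could not be fitted without a sample of the pair numbered 1.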
